A study of Danio rerio with 6 samples.

Results

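Among the scars of adult ScarTrace zebrafish, 168 were a single deletion of 13 to 24 bp that touched a chosen stretch of GFP. They were chosen by a rule. A scar was a member when its alignment held exactly 1 deletion and no insertion, the deletion was 13 to 24 bp long and touched positions 520 to 570 of the 720-bp GFP reference, and at least 10 reads of it were counted in 1 or more libraries. These were 168 of the 4273 different scars that reached 10 reads in a library. The place of the Cas9 cut on the reference was not known here. The rule used length, place and reads, so none of these is a finding, and the shares of reads below describe the members. Later tests of midpoints, numbers of members, libraries per member and the leading member also use place or reads. They describe only scars chosen by such a rule. The scars were read from genomic DNA of dissected body structures of 6 fish at 1 year of age, all transgenic for tandem copies of H2A-GFP and all injected at the one-cell stage with an sgRNA against GFP. Fish R1, R2 and R3 received Cas9 RNA with it, and fish P1, P2 and P3 received Cas9 protein. No uninjected fish was among these samples, so that no background level of deletions can be given. A library is a barcode with at least 1000 reads, and the body structure behind it was not used here.

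When Cas9 cuts both strands of DNA, the cell rejoins the ends, and bases are often lost or gained at the join. Descendants of the cell inherit the altered sequence, which can thus mark a clone if it was made only once. A deletion whose length is a multiple of 3 keeps the reading frame of the coding sequence behind it, whereas other lengths shift it. A deletion in a repeated stretch can be aligned at several places, so a start and an end are those the aligner chose.

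The 130 libraries held between 2802 and 3198706 reads each, with 58 libraries from Cas9 RNA fish and 72 from Cas9 protein fish. Scarred reads, the denominator of all shares below, numbered 1842 to 2187091 per library. A share of 3 scarred reads, taken as the detection limit, was therefore 0.163% in the library with fewest scarred reads and 0.000137% in that with most. No molecular identifiers marked the PCR reads, so limits and 95% Wilson intervals cover counting error only. Unscarred GFP averaged 86.3% of the reads in R2 and between 25.1% (P2) and 45.1% (R3) in the other 5 fish, and shares of scarred reads in R2 thus rest on few of its reads. R2 lay above the limit on unscarred GFP that the study's methods set for the fish it kept, and was used here as labelled. Several libraries can come from the same structure, so the SD over libraries is no error of the fish.

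The members made up a larger part of the scarred reads in P3 than in the other 5 fish. Averaged over libraries, they held 16.1% ± 6.89 of the scarred reads in R1 (SD over 31 libraries), 10.05% ± 4.07 in R2 (13 libraries) and 17.5% ± 7.61 in R3 (14 libraries). They held 15.4% ± 5.33 in P1 (26 libraries), 11.2% ± 5.30 in P2 (23 libraries) and 35.6% ± 16.7 in P3 (23 libraries). The lowest, median and highest library had 3.03%, 15.8% and 30.3% in R1, 5.43%, 8.77% and 19.6% in R2, and 7.72%, 16.03% and 40.4% in R3. After Cas9 protein they had 3.19%, 16.95% and 22.9% in P1, 2.18%, 9.76% and 22.5% in P2, and 11.5%, 32.02% and 83.3% in P3. Libraries of all 6 fish overlapped, but the median library of P3 lay above the highest library of R1, R2, P1 and P2.

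Between injections, the share was 14.5% ± 3.95 with Cas9 RNA and 20.8% ± 13.1 with Cas9 protein (SD, n = 3 each; exact permutation test, two-sided, p = 0.70, adjusted p = 0.875 over 5 comparisons). With 3 fish against 3 the smallest p is 0.10, so no comparison of injections could pass 0.05. The direction rested on P3, without which the means were 14.5% with Cas9 RNA and 13.3% with Cas9 protein. Leaving out R2 gave 16.8% with Cas9 RNA, against 20.8% with Cas9 protein.

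Few members carried most of the reads, and most members were rare. The 10 most abundant members of a fish held between 84.7% (P1) and 94.9% (P3) of its reads on members. At the other end, 68 members never exceeded 99 reads in a library, and 7 reached only 10 or 11. Another 155 deletions of the same kind stayed under 10 reads everywhere and were left out, 13 of them with 8 or 9 reads. No deletion of 13 to 24 bp with 10 reads lay outside the window. At the ends of the length range, the leading deletion of 13 bp (positions 533 to 545) averaged 0.461% of the scarred reads over fish and that of 12 bp (535 to 546) averaged 0.981%. The leading deletion of 24 bp (521 to 544) averaged 0.532% and that of 25 bp (525 to 549) averaged 0.398%.

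The most abundant member removed 18 bp, from position 532 to 549, and was read in each of the 130 libraries. Its lowest, median and highest share was 0.118%, 3.06% and 9.31% in R1, 0.0529%, 1.91% and 3.63% in R2, and 2.32%, 8.17% and 15.8% in R3. After Cas9 protein it was 0.0643%, 0.655% and 4.03% in P1, 0.0458%, 1.02% and 6.39% in P2, and 3.20%, 18.9% and 82.03% in P3. Fish P3 and R3 were high and P1 was low, and the 2 injections overlapped. It was the leading member in 22 of 23 libraries of P3 and in 13 of 14 libraries of R3, but in 3 of 26 libraries of P1.

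A pair of libraries of P3 stood apart. In barcode 20, the deletion from 532 to 549 made up 82.03% of 524103 scarred reads (95% Wilson interval 81.9% to 82.1%). In barcode 21 it made up 81.7% of 116848 scarred reads (81.5% to 81.9%). No other library of P3 exceeded 38.98%. Unscarred GFP was 54.4% and 59.5% of the reads in these libraries, against a mean of 25.7% ± 20.4 over P3 (SD over libraries). It was not high in this pair alone, since barcode 15 had 50.7% unscarred GFP with 18.9% of the deletion. Without barcodes 20 and 21, the deletion averaged 18.5% ± 7.93 (21 libraries) in place of 24.03% ± 19.8, and the members together 31.1% ± 7.76 in place of 35.6%. The part of the 2 libraries in the comparison of injections was not tested beyond leaving out the fish.

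The next member removed 21 bp, from position 531 to 551, and was kept, that is counted with at least 10 reads, in every library of all fish but R2. Its mean share was 2.26% in R1, 0.533% in R2, 2.18% in R3, 3.06% in P1, 3.68% in P2 and 0.305% in P3. Its median share was 1.93%, 0.221% and 1.48% in R1 to R3, and 2.20%, 1.05% and 0.0282% in P1 to P3. P3, where the 18-bp deletion was highest, was thus lowest by mean and by median, whereas P2 was highest by mean only. In P2 the libraries ran from 0.275% to 18.7%, and without the highest the mean was 3.002%. Without its own highest library P1 had 2.80%, so that P2 stayed highest by mean with a single library left out of each. In P2 3 libraries exceeded 10%, against 0 in P1, and the order without more than a single library was not tested. The 21-bp deletion led the members in 8 of the 23 libraries of P2. Barcodes 24 and 23 of P2 had 18.7% (18.6% to 18.8%) and 17.4% (17.3% to 17.5%).

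A deletion of 17 bp from 532 to 548 starts at the same base as the 18-bp deletion and ends 1 base earlier. It ranked first in R2 with a mean of 2.69% ± 1.35 and libraries from 1.16% to 5.61%, all 13 of which carried it. Means were 1.29% in R1, 0.145% in R3, 1.38% in P1, 0.0291% in P2 and 0.202% in P3. In R1 its median library had 0.173% but barcode 16 had 12.8% (12.7% to 13.03%). Its ratio to the 18-bp deletion was therefore not constant between fish or libraries.

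A deletion of 24 bp from 521 to 544 averaged 1.04% in R1, 0.490% in R2, 0.255% in R3, 0.230% in P1, 0.709% in P2 and 0.470% in P3. It was kept in 126 of the libraries. Barcode 4 of P2 had its highest share, 10.8%, and without that library the mean of P2 was 0.252%. A deletion of 14 bp from 538 to 551 averaged 1.86% in P1 and 1.04% in P3, and between 0.0241% (R3) and 0.318% (R2) in the other fish. Its median library had 1.77% in P1 but 0.116% in P3, where the highest had 8.72%. An 18-bp deletion from 537 to 554 was in all 14 libraries of R3 with a mean of 0.927%. It reached 7.26% in a library of P2, where the median library had 0.0294%, and 4.33% in R1, where the median was 0.00496%. A 14-bp deletion from 534 to 547 reached 6.30% in R2 and 2.83% in R3, against medians of 0.0529% and 0.0151%.

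The deletion of 18 bp from 527 to 544 was concentrated in a fish. In P1 it was kept in all 26 libraries with 0.156%, 2.97% and 7.48% as lowest, median and highest share, and it was the leading member of that fish with a mean of 3.21%. The other fish had means between 0.000613% (R1) and 0.00540% (P2), so that P1 was 595 times the next fish. That ratio rests on traces, since the mean of P2 came from 199 reads and was 0.00186% without its highest library. All these means leave out combined scars. In R2 the same deletion together with one from 496 to 514 averaged 0.333% and reached 4.30%. The single deletion still counted as kept in all 6 fish. At least 10 reads of it were counted in 1 library each of R1 and R2, 3 of R3, 6 of P2 and 5 of P3. Counts of fish that share a scar thus include traces of this size, and P1 was the most deeply sequenced fish with 23286860 reads.

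Fish P3 held a pair of members with a far higher mean than in any other fish. The 13-bp deletion from 533 to 545 averaged 2.63% ± 3.44 there, was kept in all 23 libraries and reached 13.8% in barcode 9. The 15-bp deletion from 535 to 549 averaged 2.34% ± 3.05, was kept in all 23 libraries and reached 12.6% in the same barcode. The highest mean in another fish was 0.118% (R1) for the 13-bp deletion and 0.0565% (R3) for the 15-bp deletion. In R1, however, the 13-bp deletion was kept in 11 libraries and reached 2.30% in barcode 21. In P2, a 23-bp deletion from 528 to 550 averaged 1.09% and led in 6 libraries. It was kept in 25 of 26 libraries of P1, at a mean of 0.140%, and in no other fish. Barcode 24 of P1 had 2.75%, and without it the mean of P1 was 0.0362%.

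The remaining lengths had weaker leading members. The 16-bp deletion from 544 to 559 averaged 0.428% in P2, the 19-bp deletion from 536 to 554 averaged 0.166% in P1 and the 20-bp deletion from 539 to 558 averaged 0.0889% in P2. The 22-bp deletion from 526 to 547 averaged 0.181% in P1 and 0.0906% in P3. In each case the median library was far below the highest. The 20-bp deletion, for example, had a median of 0.00313% and a highest share of 1.93% in P2.

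Starts and ends were unevenly used. The 168 members had 35 different starts, from position 511 to 546, and 38 different ends, from 526 to 568. Their median start was 531 and their median end 548. The 16 members that start at 531 or 532 held 54.9%, 54.4% and 65.7% of the reads on members in R1 to R3, and 39.1%, 69.4% and 77.2% in P1 to P3. Both starts were taken from the 2 members with the highest mean shares over fish, so the choice itself favours high values. Those 2 members alone held from 22.6% (R2) to 75.6% (P3) of the reads on members. The 8 neighbouring end positions with most reads, 544 to 551, held from 71.6% (R1) to 95.7% (R2) of these reads. The end used by most reads was 549 in R1, R3 and P3, 548 in R2 and 551 in P1 and P2.

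The base covered by most members was position 542, which 120 of the 168 members deleted. These held 88.9%, 99.6% and 94.0% of the reads on members in R1 to R3, and 99.3%, 97.1% and 99.1% in P1 to P3. The 28 members that end before position 540 held at most 0.426% of the reads on members in any fish (R1). Positions 539, 540 and 543 were each deleted by 119 members. At position 539 such members held 98.7% of the reads on members in R1, and P2 was lowest with 93.9%. Which fish was lowest thus depended on the base. Fish R1 was lowest at position 542, and there a 14-bp deletion from 527 to 540, which does not reach it, held 10.3% of its reads on members. This deletion averaged 1.29% of the scarred reads in R1 and 0.647% in R3, and was kept in 31 libraries of R1 and 10 of R3 but in no library of another fish.

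Read-weighted midpoints of the members lay within 2 bases of each other. They were 539.9, 540.03 and 540.6 in R1 to R3, and 540.02, 541.6 and 540.9 in P1 to P3. Means were 540.2 ± 0.372 with Cas9 RNA and 540.8 ± 0.788 with Cas9 protein (SD, n = 3 each; exact permutation test, two-sided, p = 0.30). Over the 6 fish, the midpoint of deletions of 13 to 24 bp was 0.458 bases before that of single deletions of 7 to 12 bp, lower in 5 of 6 fish (exact sign-flip permutation test, two-sided, p = 0.0938, adjusted p = 0.188). It was 1.23 bases behind that of deletions of 25 bp or more, higher in 5 of 6 fish (exact, p = 0.531, adjusted p = 0.708). With all reads of a fish pooled, this difference turned to -0.104 bases.

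Lengths were not equally represented, in members or in reads. Each length from 13 to 24 bp had between 9 and 18 members. Deletions of 14, 17, 18 and 21 bp held 14.4%, 12.7%, 38.5% and 18.8% of the reads on members, averaged over fish, and deletions of 19, 20 and 22 bp held 0.539%, 0.169% and 0.653%. The leading length was 18 bp in R1, R3, P1 and P3, 17 bp in R2 and 21 bp in P2. The leading length held 25.1% of the reads on members in R1 and 75.6% in P3.

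In-frame deletions were 61 of the 168 members, or 36.3%, and 4 of the 12 lengths are multiples of 3. Within a fish, 40.7%, 45.8% and 43.5% of the kept members were in frame in R1 to R3, and 37.4%, 47.8% and 48.7% in P1 to P3. In reads they weighed more in 5 fish, but less in R2. They made up 58.9% ± 14.2, 37.7% ± 16.5 and 74.4% ± 16.4 of the reads on members in the mean library of R1 to R3 (SD over libraries), and 59.7% ± 13.3, 68.5% ± 19.5 and 79.3% ± 14.5 in P1 to P3. Single libraries ran from 6.61% (R2) to 99.5% (P2 and P3). The means were 56.98% ± 18.4 with Cas9 RNA and 69.2% ± 9.85 with Cas9 protein (SD, n = 3 each; exact permutation test, two-sided, p = 0.40). Without R2 the means were 66.6% with Cas9 RNA, against 69.2% after Cas9 protein.

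The deletions from 532 to 549 and from 531 to 551, with the highest mean shares over fish, are both in frame and together held 33.1%, 22.6% and 61.5% of the pooled reads on members in R1 to R3, and 23.1%, 66.6% and 75.6% in P1 to P3. Leaving out in-frame reads lowers the share by construction. Among the other members, the pooled in-frame share was 41.8%, 16.9% and 37.7% in R1 to R3, and 46.9%, 47.2% and 41.04% in P1 to P3.

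Against the neighbouring length classes, the in-frame share of reads was 63.1% ± 14.8 in deletions of 13 to 24 bp and 34.1% ± 14.5 in deletions of 7 to 12 bp (SD, n = 6 fish), higher in 5 of 6 fish (exact sign-flip permutation test, two-sided, p = 0.0625, adjusted p = 0.167). In deletions of 25 bp or more it was 27.2% ± 22.7, with a difference in the same direction in 5 of 6 fish (exact, p = 0.0625, adjusted p = 0.167). The longer class held only 0.471% (P2) to 2.96% (P1) of the scarred reads. Its leading deletion held from 14.9% (R1) to 74.7% (R2) of the reads of that class. The exceptions were R1 for the shorter class, where it was 58.9% in deletions of 13 to 24 bp and 61.6% in those of 7 to 12 bp, and R2 for the longer class, with 37.7% and 65.3%. Neither difference passed after Benjamini-Hochberg adjustment over 8 comparisons of classes. With the 2 leading members of each class left out, an alternative chosen after seeing the data, the in-frame shares were 38.6% in deletions of 13 to 24 bp, 34.96% in those of 7 to 12 bp and 25.7% in those of 25 bp or more. The differences were then 3.59 and 12.8 percentage points (exact, p = 0.75 and p = 0.156). The members left out were of 18 and 21 bp, both in frame, in deletions of 13 to 24 bp. They were of 9 and 11 bp, and of 25 and 30 bp, in the other classes, where only those of 9 and 30 bp are in frame. Part of the fall in the differences is therefore fixed by which members were left out.

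A fish had between 48 (R2) and 108 (R1) members with at least 10 reads in a library. There were 108, 48 and 62 in R1 to R3, and 99, 67 and 78 in P1 to P3, or 72.7 ± 31.4 with Cas9 RNA and 81.3 ± 16.3 with Cas9 protein (SD, n = 3 each; exact permutation test, two-sided, p = 0.70). Without R2 the means were 85 with Cas9 RNA, against 81.3 with Cas9 protein. With each library drawn down to 1000 reads, only 41 members were found in all. Between 13 (R2) and 49 (P1) of the members of a fish lay within 1 base at both ends of a member with at least 10 times their reads. Such near neighbours held 1.16% (P3) to 3.99% (R2) of the reads on members, and how many of them are misaligned reads of the larger member was not tested.

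Most members were kept in more than 1 fish. Of the 168 members, 109 were kept in at least 2 fish, 27 of them in all 6, and 59 in 1 fish. Over all 4273 scars, 19.1% were kept in at least 2 fish, 2.83% in all 6 and 80.9% in 1 fish. Among single deletions of 7 to 12 bp, 23 of 97 were kept in all 6 fish and 19 in 1 fish, and among those of 25 bp or more 4 of 117 and 92. The median number of reads per scar in a fish was 145 to 530 in deletions of 13 to 24 bp, 320 to 1284 in those of 7 to 12 bp and 71 to 188 in those of 25 bp or more, and its part in the sharing was not tested.

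The 27 members kept in all fish held most of the reads on members. Their part was 71.7%, 93.4% and 87.9% in R1 to R3, and 87.1%, 89.4% and 86.4% in P1 to P3. Being kept takes at least 10 reads in a library of each fish, so the choice itself favours members with many reads. No such part is given here for scars of any kind. Members kept in 1 fish alone numbered 22, 5 and 4 in R1 to R3 and 15, 7 and 6 in P1 to P3. They held 6.60% of the reads on members in R1 and from 0.0828% (P3) to 1.75% (R2) in the others. With regard to injection, 34 members were kept only in Cas9 RNA fish, 42 only in Cas9 protein fish and 92 in both, against 1580, 2097 and 596 of all 4273 scars. The 59 members kept in 1 fish fall on one side by construction. Of the other 109, 3 were kept only after Cas9 RNA and 14 only after Cas9 protein. Among the 816 scars of any kind kept in at least 2 fish, these counts were 59 and 161. No member, and 4 and 11 of all scars, were kept in all 3 fish given Cas9 RNA or Cas9 protein and in none of the other 3.

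Nearly all reads on the members private to R1 came from an 18-bp deletion from 539 to 556, which held 6.02% of its reads on members. This deletion was kept in 30 of 31 libraries, with a mean of 1.03%, a median of 0.0447% and 9.60% in barcode 6. At most 6 reads of it were counted in any other fish. The corresponding most widely carried members were weaker in the other fish. Libraries are counted here at 10 or more reads. In R2 it was a 22-bp deletion from 537 to 558, in 4 libraries with a mean of 0.145%. In R3 it was a 19-bp deletion from 539 to 557, in 3 libraries with 0.00718%. In P1 it was a 17-bp deletion from 535 to 551, in 5 libraries with 0.00995%. In P2 it was a 21-bp deletion from 542 to 562, in 6 libraries with 0.0586%. In P3 it was a 13-bp deletion from 528 to 540, in 13 libraries with 0.0124%. Without the highest library of each, these means were 0.0362% in R2, 0.00116% in R3, 0.00505% in P1, 0.0281% in P2 and 0.0114% in P3. The deletion of P3 was read at least once in all 23 libraries of its fish, at a highest share of 0.0343%. Within combined scars, which these counts leave out, the same deletion had 445 reads in R1.

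Between injections, 9 of the 109 members kept in at least 2 fish had a higher mean share in every Cas9 RNA fish than in any Cas9 protein fish, or 8.26%, and 10% of the 816 scars of any kind kept in at least 2 fish did so. In the opposite direction there were 3 members, or 2.75%, against 4.17% of all such scars. Both counts were near or below those of scars in general. The most abundant of the 9 was a 14-bp deletion from 531 to 544, with means of 0.248%, 0.519% and 0.325% in R1 to R3 and of 0.00421%, 0.00155% and 0.00872% in P1 to P3. In R2 barcode 10 had 6.15%, and without it the mean was 0.0494%. Without the highest library of each, the means of R1 and R3 were 0.111% and 0.154%. In P2, moreover, the same deletion combined with one from 515 to 516 averaged 0.379%, which the share of single deletions leaves out. This combined scar reached 8.16% in a single library of P2, and its mean without that library was not computed. The most abundant of the 3 was the deletion from 528 to 550 named above for P1 and P2, of which 14 reads in P3 and 2 in R1 set the order of those fish.

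Members differed widely in how many libraries carried them. A member kept in a fish had at least 10 reads in 29.9%, 30.8% and 41.4% of the libraries of R1 to R3 on average, and in 37.6%, 30.4% and 35.5% of those of P1 to P3. These means were 34.01% ± 6.38 with Cas9 RNA and 34.5% ± 3.72 with Cas9 protein (SD, n = 3 each; exact permutation test, two-sided, p = 0.90). Without R2 they were 35.6% with Cas9 RNA, against 34.5% with Cas9 protein. In a single library only, 24, 16 and 14 members of R1 to R3 and 22, 24 and 21 of P1 to P3 reached 10 reads. In every library of the fish, 7, 2 and 4 members of R1 to R3 and 5, 5 and 10 of P1 to P3 reached 10 reads. Fewer reads of a member could still be present in a library. At this limit the median library carried 30, 13 and 26.5 members in R1 to R3, and 37.5, 18 and 28 in P1 to P3.

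Compared with the longer class, members were carried by more libraries in all 6 fish, with 34.2% ± 4.68 of the libraries for deletions of 13 to 24 bp and 22.1% ± 5.46 for those of 25 bp or more (SD, n = 6; exact sign-flip permutation test, two-sided, p = 0.0312, the smallest that 6 fish allow, adjusted p = 0.167). Against deletions of 7 to 12 bp, at 37.9% ± 6.77, the difference was -3.71 percentage points and lower in 5 of 6 fish (exact, p = 0.188, adjusted p = 0.30). The part of reads per member in these differences was not tested.

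The member with most reads in a library changed from library to library in 4 fish and hardly in the other 2. In R1, 7 different members led in at least 1 of 31 libraries, in R2 5 in 13, in P1 8 in 26 and in P2 7 in 23. In R3 and P3 there were 2. Over a whole fish the leading member held 18.02%, 28.003% and 50.4% of the reads on members in R1 to R3, and 21.4%, 55.4% and 74.9% in P1 to P3. The mean over fish was 41.4% in deletions of 13 to 24 bp, 40.6% in those of 7 to 12 bp (exact, p = 0.938, adjusted p = 0.938) and the 46.5% in those of 25 bp or more (exact, p = 0.688, adjusted p = 0.786), with 3 of 6 fish higher each time.

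The deletions of the members were also looked for inside scars with further events, which the rule did not use. The deletion from 531 to 551 in P2 was read 493089 times alone and 2430 times together with other events, or 0.493% of the reads alone. For the deletion from 532 to 549 the percentage was 49.3% in R1, 1.49% in R2, 0.483% in R3, 0.506% in P1, 0.494% in P2 and 0.418% in P3.

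In the combined scars of both leading members the most frequent partner was a further deletion of 1 bp at position 576, beyond the window, in all fish except R1 and R2 for the deletion from 532 to 549. The deletion from 532 to 549 occurred with a deletion of base 576 in 2022 reads of P3, or 0.134% of its reads alone. Over the members with at least 5000 reads in a fish, the median of this percentage was 0.219%, 0.166% and 0.132% in R1 to R3, and 0.146%, 0.166% and 0.149% in P1 to P3. Deletion of base 576 alone was counted, in relation to unscarred GFP, at 0.249%, 0.172% and 0.146% in R1 to R3, and at 0.143%, 0.144% and 0.148% in P1 to P3. Base 576 was thus missing at about the same rate beside a member and in otherwise unscarred GFP.

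For some members the combined scars held more reads than the deletion alone. Of the members with any read alone, this was so for 36 of 153 in R1, 13 of 90 in R2 and 20 of 122 in R3, and for 48 of 148 in P1, 39 of 133 in P2 and 29 of 132 in P3. With at least 1000 combined reads there were 5, 3 and 1 in R1 to R3, and 6, 1 and 0 in P1 to P3. These tallies leave out members with no read alone in the fish. Among those, the deletion from 544 to 566 had 21489 combined reads in P2. The deletion from 539 to 553 had 4310 in R1, and that from 521 to 542 had 2200 in P3. In R2, the deletion from 521 to 544 was read 8412 times alone and 10338 times combined, of which 10134 reads carried the same 2 further deletions upstream. That combined scar averaged 0.558% of the scarred reads in R2 and reached 6.67%. In R1, the deletion from 532 to 549 occurred together with another 18-bp deletion from 491 to 508 in 101310 reads and all 31 libraries, against 216842 reads of the deletion alone. In R1 the deletion from 527 to 539 was read 2 times alone, but 152458 times within combined scars, mostly with a deletion from 514 to 524 that was found in all 31 libraries. In P2 the deletion from 531 to 544 was read 73 times alone and 49996 times combined, mostly with a deletion from 515 to 516 in 22 libraries. In R2 the deletion from 527 to 544, the leading member of P1, was read 222 times alone and 2123 times combined, of which 1977 reads had a deletion from 496 to 514. For these fish a member count of single deletions therefore gives only part of the reads in which that stretch was lost.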

How the data were processed

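Scars were measured as PCR reads of GFP from genomic DNA of 6 zebrafish. The authors mapped them with the Burrows–Wheeler Aligner, for which the submitters' processing notes name BWA 0.7.16a, and deposited counts of reads per scar and barcode without normalization, before any noise filter. Alignment options are not given in the sources used here. Members were selected from the alignment strings, and shares were taken of scarred reads in barcodes with at least 1000 reads and averaged per fish. The limit of 10 reads is not the study's own filter, which acts on fractions of reads. The members, classes and lists were chosen with earlier results of these data known. Scars named in the text were the 3 most abundant members of each fish, the 6 most abundant of those kept in all fish, the leading member of each length and the most widely carried member private to each fish, 21 in all. Those of 12 and 25 bp, the deletions from 527 to 540 and from 531 to 544, and those named for combined scars were chosen after their values were seen. Injections were compared by exact permutation tests over fish and length classes by exact sign-flip tests, with Benjamini-Hochberg adjustment over 5 and 8 comparisons. The smallest adjusted p over the 5 comparisons of injections was 0.875. Alternatives were other limits on libraries and reads, pooled reads, no near neighbours, no window, 1000 reads per library, each fish left out, and a pairing by fish number. Means without a member's highest library and without 2 leading members were added after seeing the data. The steps were tested on simulated data. Python 3.11.15, NumPy 2.4.6, pandas 2.3.3 and SciPy 1.17.1 were used, with seed 1.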

Additional observations from a re-analysis of the deposited data

Results flagged for a closer look

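The share of scarred reads on deletions of 13 to 24 bp was 35.6% in fish P3, and its gap to the next of the 6 fish was 0.710 of the whole range, above the limit of 0.625 for 6 values. Chance passes this limit in about 1 of 20 groups, and 6 measures were examined.

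Barcodes with fewer than 1000 reads were used in no main comparison, only in the alternative with all barcodes. Each fish had more than 3 reads of members in them. In fish R1 the members held 7.23% of 83 scarred reads in such barcodes (95% Wilson interval 3.36% to 14.9%), against 13.6% in the pooled libraries. In fish R2 they held 13.8% of 109 scarred reads (8.52% to 21.5%), against 9.83%. In fish R3 they held 28.4% of 781 scarred reads (25.4% to 31.7%), against 15.8%, so that the interval lay above the value of the libraries. In fish P1 they held 15.6% of 630 scarred reads (12.9% to 18.6%), against 13.97%. In fish P2 they held 15.5% of 445 scarred reads (12.4% to 19.2%), against 13.8%. In fish P3 they held 36.2% of 373 scarred reads (31.5% to 41.2%), against 38.5%.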

How the results depend on the processing

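No comparison of injections can pass 0.05 with 3 fish against 3, and no comparison of classes passed after adjustment under any alternative, so that only directions could change. Values are Cas9 RNA minus Cas9 protein fish, or deletions of 13 to 24 bp minus the other class, and the cause of a change was not tested. Of 213 values under alternatives, 191 kept the direction. Both counts include the 5 values with pairing by fish number, which could not change direction. With one fish left out, the share of scarred reads ranged from -11.0 to 1.22 percentage points, the number of members from -26.3 to 3.67, the in-frame share from -20.9 to -2.53, libraries per member from -4.14 to 1.59 and the midpoint from -1.05 to -0.262 bases. Reads on the leading member ranged from -5.17 to 5.63 against 7 to 12 bp and from -12.2 to 3.12 against 25 bp or more. The number of members turned from -8.67 to 2 with a limit of 100 reads, 2.67 with 0.1% of the reads and 4 without near neighbours. Libraries per member turned from -0.467 to 1.28 with all barcodes and 2.03 with a limit of 3 reads, and from -3.71 to 0.716 against 7 to 12 bp with 0.1% of the reads. The midpoint against 25 bp or more turned from 1.23 to -0.104 with pooled reads and -0.178 with 1000 reads per library. Reads on the leading member against 7 to 12 bp turned from 0.762 to -0.791 without near neighbours, -2.42 with 1000 reads per library and -5.25 without the 2 leading members of each class. The members numbered 168 at 10 reads, 228 at 3 reads, 100 at 100 reads, 74 at 0.1% and 41 at 1000 reads per library. Fish with the same number are different animals. With pairing by number as a replicate block, differences were unchanged by construction, at -6.22, -8.67, -12.2, -0.467 and -0.647, with exact p between 0.25 and 1.0. A limit of 10 reads is a larger share in a shallow library, and the part of depth in the member counts per fish was not tested.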
